A study of Mus musculus with 4 samples.

Results

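The 39 mouse Hox genes were examined in the transcriptome of mouse embryonic stem cells, without any expression filter, as every gene of the deposited table whose symbol is Hox, a cluster letter from a to d and a paralog number. They were 39 of 22266 genes in the table: 11 in HoxA, 10 in HoxB, 9 in HoxC and 9 in HoxD. Poly(A) RNA was sequenced from the female line PGK12.1, grown on gelatin in serum with leukemia inhibitory factor, whose Cbx2 is floxed on both alleles and fused to a HaloTag. All 4 libraries are labelled batch 2. The OHT group (2 libraries, day 2) received 1.0 µM 4-hydroxytamoxifen for 48 hours to delete Cbx2 and is labelled knockout. The EtOH group (2 libraries, day 0) received ethanol and is labelled wild type, although it carries the same floxed, tagged alleles. The labels do not name the recombinase or the deleted exons, and they do not say how many clones the line came from. No library combines 4-hydroxytamoxifen with an intact Cbx2, so the deletion, the drug and the time in culture cannot be told apart. Whether the 2 libraries of a group are separate cultures is not stated, and p-values here reflect the spread between these samples alone, possibly a technical one.

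Hox genes encode homeodomain transcription factors that give cells along the head-to-tail axis their positional identity. In mammals they lie in 4 clusters, and the paralog number follows a gene's place in its cluster, with low numbers active early and anteriorly and high numbers late and posteriorly. In embryonic stem cells the clusters are held largely silent under H3K27 methylation by PRC2 and under PRC1, the complex to which the chromodomain protein CBX2 belongs. The comparison addresses which Hox transcripts differ shortly after deletion of Cbx2 is induced.

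The values are the authors' TPM, a length-corrected share of transcripts that sums to 1000000 in each library. The depth of the libraries is unknown, since this unit does not carry it, and a listed 0 cannot be given a detection limit. In bulk RNA, fewer cells that express a gene and less RNA per cell cannot be told apart. Cbx2 itself read 0.749 and 1.14 TPM with OHT, against 2.29 and 2.71 TPM with EtOH, so the groups did not overlap. Its log2 difference of -0.85 (SE 0.19, limma adjusted p = 0.265) did not pass the threshold of 0.05. The adjusted p was 0.0292 without OHT replicate 1 and 0.0128 without OHT replicate 2, where the single OHT library is given the spread of the EtOH pair. It was 0.741 without EtOH replicate 1 and 1 without EtOH replicate 2. Embryonic stem cell markers were abundant in every library, with Pou5f1 between 1856 and 2229 TPM and Nanog between 966 and 1131 TPM. The OHT libraries lay further apart than the EtOH libraries, with an SD over tested genes of the log2 difference between replicates of 0.348 with OHT and 0.178 with EtOH.

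Most Hox genes were low or listed at 0 in both groups, least so in HoxD. By group mean, 22 of 39 were below 1 TPM with OHT and 26 of 39 with EtOH, where 45.7% of all genes in the table lay below 1 TPM with OHT and 46.5% with EtOH. Hoxb5 and Hoxb6 were listed at 0 in all 4 libraries (5.13% of Hox genes), where 20.3% of all genes in the table were. In single libraries the number of Hox genes at 0 was 8 and 5 with OHT, against 5 and 6 with EtOH. These counts were 12.8% to 20.5% of Hox genes, where 24.75% to 27.96% of all genes were at 0. A value of 0 was thus less frequent among Hox genes than in the whole table. In HoxB, 9 of 10 genes had a group mean below 1 TPM under either treatment, and the exception was Hoxb9. In HoxD the number below 1 TPM was 2 of 9 with OHT and 4 of 9 with EtOH. HoxA had 5 of 11 below 1 TPM with OHT and 6 of 11 with EtOH, and HoxC had 6 of 9 with OHT and 7 of 9 with EtOH.

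Posterior paralogs carried most of the Hox signal. Paralogs 9 to 13, which pattern the trunk, limbs and genital region in the embryo, made up 74.1% of all Hox TPM with OHT and 80.3% with EtOH. Paralogs 1 to 4 made up 13.6% with OHT and 10.9% with EtOH, and paralogs 5 to 8 made up 12.3% with OHT and 8.81% with EtOH. Averaged over the 4 libraries, 10 of 16 posterior genes reached 1 TPM, against 3 of 12 anterior genes and 2 of 11 central genes. The order from the highest mean down began with Hoxc13 (6.70 TPM), Hoxa10 (5.58 TPM) and Hoxd13 (5.34 TPM). Pooled over the 4 libraries, the values of neighbours in that order overlapped, but within each library Hoxc13 exceeded Hoxa10. Hoxd9, Hoxd11 and Hoxa11 followed with means of 3.93, 3.65 and 3.56 TPM, and their library values overlapped as well.

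**Figure D1:**
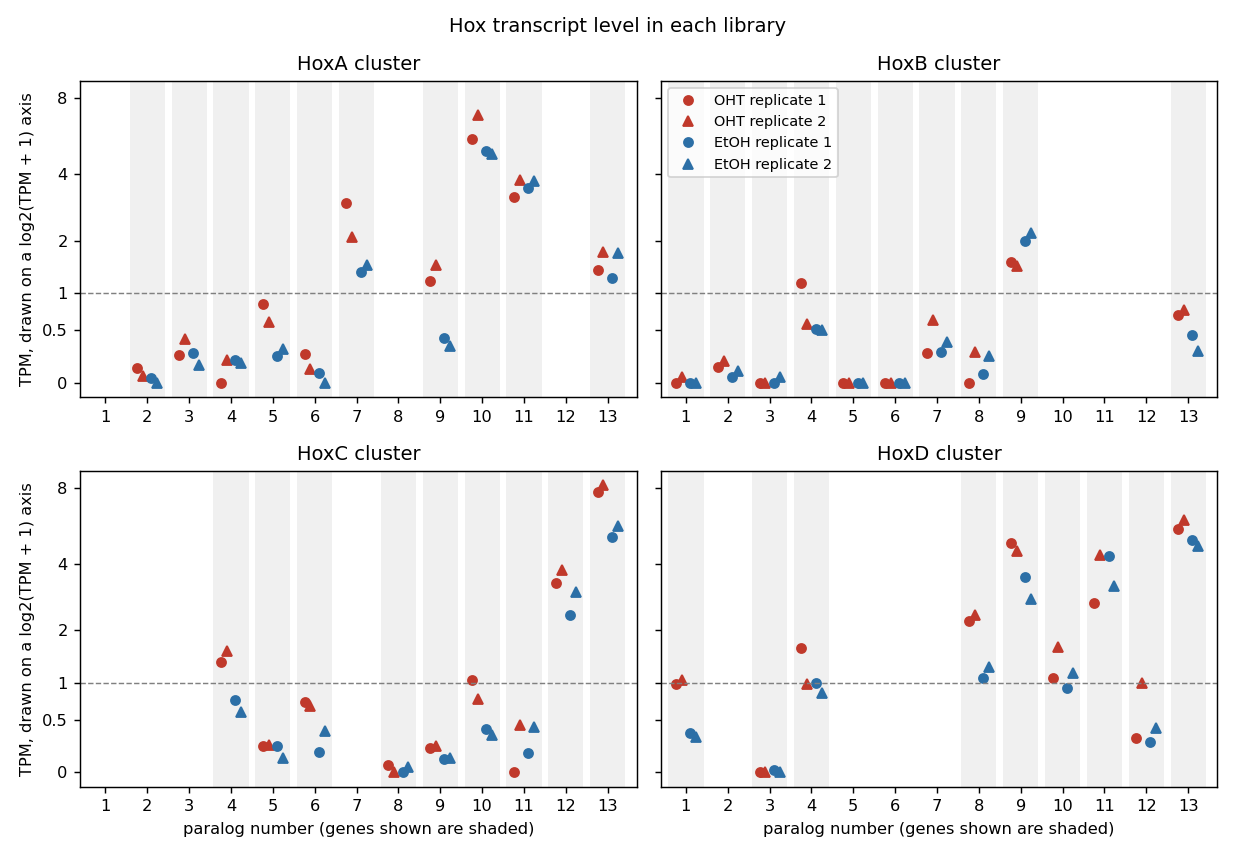
TPM of the Hox genes reported here in each library, drawn on a log2(TPM + 1) axis against paralog number, with 1 panel per cluster; red symbols are the 2 OHT libraries and blue symbols the 2 EtOH libraries, and the dashed line marks 1 TPM. The highest values stand at paralogs 9 to 13, Hoxb5 and Hoxb6 lie at 0 throughout, and the red points of Hoxa9, Hoxd1 and Hoxd8 stand clear of the blue ones.

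For 21 of the 39 Hox genes (53.8%) the lower OHT value exceeded the higher EtOH value, and for 1 the reverse held. Over all genes in the table OHT stood above EtOH in this sense for 17.2% and below for 14.6%. Among all genes with a mean of 0.1 to 10 TPM, a range chosen after the values were seen, 29.5% lay above and 14.9% below. Among all genes with a mean below 1 TPM and not at 0 throughout, a set also chosen afterwards, 18.6% lay above and 15.9% below. Of the 24 Hox genes with a mean below 1 TPM, 2 of them at 0 throughout, 12 lay above and 0 below. Of the 32 Hox genes with a mean of 0.1 to 10 TPM, 20 lay above (62.5%) and 1 below. The median log2 difference over the 39 genes was 0.18, beside 0 over all genes in the table, and the single OHT libraries set against the mean of EtOH gave 0.12 for replicate 1 and 0.18 for replicate 2. For those 32 the median was 0.26, beside 0.071 for all genes in the same range. There OHT replicate 1 alone gave 0.18, beside -0.020 for all genes in the range. OHT replicate 2 alone gave 0.32, beside 0.16. Without OHT replicate 1, 32 Hox genes lay above and 1 below, where 44.3% of all genes in the table lay above and 20.5% below. Without OHT replicate 2, 23 Hox genes lay above and 7 below, where 24.2% of all genes lay above and 38.7% below.

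**Figure D2:**
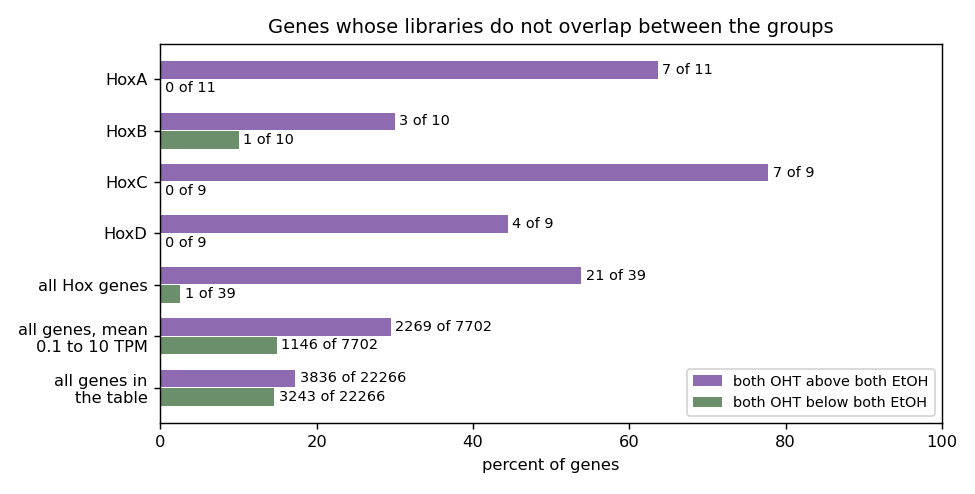
Percent of genes for which both OHT libraries lie above both EtOH libraries (purple) or below them (green), for each Hox cluster, all Hox genes, all genes with a mean of 0.1 to 10 TPM and all genes in the table; counts are printed beside the bars. The purple bar reaches 77.8% in HoxC and 63.6% in HoxA, against 29.5% and 17.2% in the 2 background sets, while HoxB stands at 30%.

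No Hox gene passed the test across all genes. With a minimum mean of 1 TPM, 15 Hox genes were tested and none had a limma adjusted p under 0.05, where 0.0416% of the 12029 genes tested did. At an unadjusted p under 0.05 stood 5 Hox genes, all higher with OHT: Hoxd8, Hoxc4, Hoxc13, Hoxa7 and Hoxd9. The share of all tested genes at that level was 6.02% higher and 4.46% lower. Without a filter on low values, 37 Hox genes could be fitted, of which 10 stood higher with OHT at that level and 0 lower, where 5.62% of 17757 genes were higher and 4.73% lower. The lowest adjusted p in that fit was 0.288, shared by Hoxa9 and Hoxd1. With 1 library left out, 4 Hox genes passed without OHT replicate 1 (among them Hoxc4, Hoxc13 and Hoxd8, adjusted p from 0.0357 to 0.0430) and 2 without OHT replicate 2 (Hoxa7, 0.0252, and Hoxd8, 0.0492). Such a fit gives the single OHT library the spread of the EtOH pair. In those fits 2957 (24.6%) and 2478 (20.6%) of all tested genes passed, and the median difference over all tested genes was 0.14 and -0.094, beside 0.023 with all libraries.

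All 39 genes summed to 55.7 and 62.3 TPM with OHT, against 43.1 and 44.0 TPM with EtOH, a ratio of group means of 1.36. Summed over each cluster, TPM was higher in both OHT libraries in all 4 clusters, by different amounts. HoxC, whose 9 genes include the hair and nail regulator Hoxc13, summed to 14.65 and 15.9 TPM with OHT, against 9.34 and 10.7 TPM with EtOH, a ratio of group means of 1.52. HoxA summed to 17.99 and 20.7 TPM with OHT, against 13.9 and 14.7 TPM with EtOH (ratio 1.35). HoxD summed to 19.3 and 21.9 TPM with OHT, against 16.5 and 14.8 TPM with EtOH (ratio 1.32). HoxB, the cluster of lowest level, summed to 3.77 and 3.91 TPM with OHT, against 3.34 and 3.70 TPM with EtOH (ratio 1.09), and its lowest OHT value exceeded its highest EtOH value by only 0.068 TPM. The log2 differences of the sums were 0.61 (SE 0.12) for HoxC, 0.43 (SE 0.11) for HoxA, 0.40 (SE 0.12) for HoxD and 0.13 (SE 0.078) for HoxB. The HoxB value was 0.052 without EtOH replicate 1 and 0.20 without EtOH replicate 2. With 2 libraries a group, 0.33 is the smallest two-sided p of an exact permutation test, so the sums were not tested, and differences between the clusters were not tested either.

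**Figure D3:**
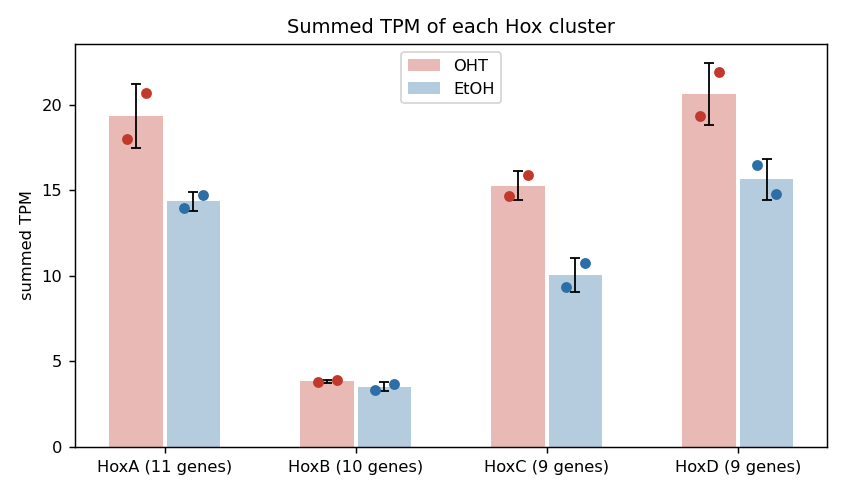
TPM summed over the genes of each Hox cluster, on a linear axis from 0; bars are means of 2 libraries, points are the libraries, error bars are the SD, and OHT is drawn left of EtOH. The OHT points stand above the EtOH points in HoxA, HoxC and HoxD, and the 2 groups nearly touch in HoxB.

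Grouped by position, the sums of the central and anterior paralogs differed by larger ratios than those of the posterior paralogs. Paralogs 5 to 8 summed to 7.57 and 6.96 TPM with OHT, against 3.485 and 4.19 TPM with EtOH (ratio 1.89). Paralogs 1 to 4 summed to 7.80 and 8.29 TPM with OHT, against 4.81 and 4.68 TPM with EtOH (ratio 1.70). Paralogs 9 to 13 summed to 40.3 and 47.1 TPM with OHT, against 34.8 and 35.1 TPM with EtOH (ratio 1.25). The groups did not overlap in any of the 3 positions, and a difference in ratio between positions was not tested. Sums follow the highest genes: Hoxa7 and Hoxd8, with OHT means of 2.55 and 2.29 TPM, made up most of the central mean of 7.27 TPM. Gene by gene, the median difference of log2(TPM + 1) ran the other way, at 0.238 for posterior, 0.122 for anterior and 0.115 for central genes. That scale understates changes of low genes. The median EtOH mean was 1.79 TPM for posterior, 0.189 TPM for anterior and 0.173 TPM for central genes. These medians therefore do not rank the positions by size of change.

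**Figure D4:**
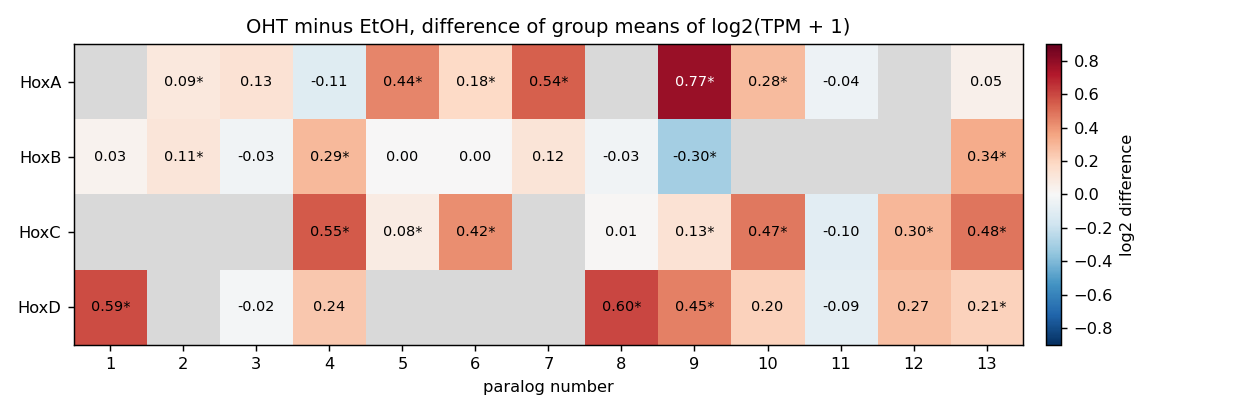
OHT minus EtOH difference of the group means of log2(TPM + 1) for the Hox genes reported here, with clusters as rows and paralog numbers as columns; red is higher with OHT, blue is lower, grey marks a position with no value shown, and an asterisk marks genes whose libraries do not overlap between groups. The largest value is 0.77 at Hoxa9 and the lowest is -0.30 at Hoxb9, and the 3 genes of paralog 11 lie between -0.098 and -0.044.

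Among the most anterior paralogs, Hoxd1 read 0.974 and 1.04 TPM with OHT, against 0.359 and 0.315 TPM with EtOH, a ratio of group means of 2.99. Both OHT libraries of Hoxd1 stood clear of both EtOH libraries, by a gap wider than either group's own spread. Hoxb1, its HoxB paralog and a hindbrain regulator, was listed at 0 and 0.0427 TPM with OHT and at 0 in both EtOH libraries.

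Among paralogs 4, which act in the neck and upper trunk, Hoxc4 read 1.35 and 1.56 TPM with OHT, against 0.751 and 0.589 TPM with EtOH (log2 difference 0.55, SE 0.16, limma adjusted p = 0.348). Hoxb4, a regulator of blood stem cells, read 1.16 and 0.579 TPM with OHT, against 0.520 and 0.498 TPM with EtOH, so its difference came mostly from OHT replicate 1. Hoxd4 read 1.62 and 0.976 TPM with OHT, against 0.997 and 0.849 TPM with EtOH, and the groups overlapped. Hoxd4 shares 49.1% of its 31-base words with transcripts of other genes on the same strand, chiefly the predicted readthrough model Gm28230. Hoxd3 shares 61.1% in the same way, so how reads were divided there is uncertain. Hoxa4 stayed under 0.2 TPM in every library and its groups overlapped.

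Of the central paralogs, Hoxd8 and Hoxa7 had the highest levels. Hoxd8 (GRCm38 chromosome 2, 74704615 to 74707933, plus strand) read 2.22 and 2.37 TPM with OHT, against 1.07 and 1.26 TPM with EtOH. Its log2 difference was 0.60 (SE 0.17, limma adjusted p = 0.321), the lowest adjusted p of the 15 tested Hox genes, and its OHT libraries lay close together. Hoxa7 (chromosome 6, 52214491 to 52221854, minus strand), a regulator of the thoracic region, read 3.00 and 2.09 TPM with OHT, against 1.36 and 1.49 TPM with EtOH (log2 difference 0.54, SE 0.20, limma adjusted p = 0.434). Both OHT libraries were higher, and OHT replicate 1 stood further from EtOH than replicate 2. Hoxa7 shares 19.4% of its 31-base words with the opposite strand of Hoxaas3, and without knowledge of strand in the libraries their reads cannot be told apart.

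Promoter sequence is shown for those of the 5 genes with an unadjusted p under 0.05 that the RefSeq promoter table covers, beside Hoxb1 and Hoxd3, which were listed at 0 in 3 of the 4 libraries, as was Hoxb3. The table (GRCm38.p6) held 24 promoters of 22 Hox genes, each 250 bases before to 50 after a start site, printed 5′ to 3′ on the gene's strand with CpG dinucleotides in capitals.
Hoxd8 (chr2:74704365-74704664, plus strand): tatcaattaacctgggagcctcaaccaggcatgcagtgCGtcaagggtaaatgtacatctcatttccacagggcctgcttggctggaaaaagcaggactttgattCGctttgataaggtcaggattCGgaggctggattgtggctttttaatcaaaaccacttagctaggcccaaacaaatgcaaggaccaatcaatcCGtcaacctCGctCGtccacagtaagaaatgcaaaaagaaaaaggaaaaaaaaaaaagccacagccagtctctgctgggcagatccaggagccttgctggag
Hoxd9 (chr2:74697513-74697812, plus strand): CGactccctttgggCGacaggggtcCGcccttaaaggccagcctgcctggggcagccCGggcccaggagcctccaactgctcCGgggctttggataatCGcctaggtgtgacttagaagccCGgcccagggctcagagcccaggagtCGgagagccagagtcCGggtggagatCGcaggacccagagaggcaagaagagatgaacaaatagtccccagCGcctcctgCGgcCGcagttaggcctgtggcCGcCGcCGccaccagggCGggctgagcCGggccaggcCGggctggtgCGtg
Hoxc4 (chr15:103034145-103034444, plus strand): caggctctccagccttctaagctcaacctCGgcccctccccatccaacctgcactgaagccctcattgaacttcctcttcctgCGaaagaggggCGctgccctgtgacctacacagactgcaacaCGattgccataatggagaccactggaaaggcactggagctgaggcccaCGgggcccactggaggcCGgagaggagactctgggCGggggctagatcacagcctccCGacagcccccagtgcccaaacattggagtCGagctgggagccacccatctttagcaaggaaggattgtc
Hoxa7 (chr6:52218524-52218823, minus strand): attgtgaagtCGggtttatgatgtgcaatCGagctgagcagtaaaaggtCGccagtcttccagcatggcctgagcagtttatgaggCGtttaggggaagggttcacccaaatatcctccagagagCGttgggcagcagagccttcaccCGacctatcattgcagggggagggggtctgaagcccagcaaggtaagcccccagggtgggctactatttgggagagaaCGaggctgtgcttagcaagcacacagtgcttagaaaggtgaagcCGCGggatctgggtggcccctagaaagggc
Hoxb1 (chr11:96365508-96365807, plus strand): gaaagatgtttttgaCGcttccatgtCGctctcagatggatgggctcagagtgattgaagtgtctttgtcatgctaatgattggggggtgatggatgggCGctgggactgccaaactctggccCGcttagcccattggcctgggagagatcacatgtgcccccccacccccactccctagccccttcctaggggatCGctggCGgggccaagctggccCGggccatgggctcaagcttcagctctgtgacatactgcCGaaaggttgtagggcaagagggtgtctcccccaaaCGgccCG
Hoxd3 (chr2:74711743-74712042, plus strand): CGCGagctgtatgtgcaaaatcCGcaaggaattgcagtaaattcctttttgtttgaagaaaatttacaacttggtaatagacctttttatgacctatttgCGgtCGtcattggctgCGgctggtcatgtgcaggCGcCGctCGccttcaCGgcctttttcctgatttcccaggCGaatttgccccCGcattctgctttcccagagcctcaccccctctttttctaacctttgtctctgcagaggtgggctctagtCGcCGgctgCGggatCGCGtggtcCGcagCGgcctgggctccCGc

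The RefSeq starts of Hoxc4 and Hoxa7 lie inside the GENCODE span of each gene, far downstream of its first base. Those of Hoxd9, Hoxb1 and Hoxd3 also lie downstream of the first base, but close to it. CpG counts were 6 in Hoxd8, 20 in Hoxd9, 9 in Hoxc4 and 9 in Hoxa7, against 10 in Hoxb1 and 20 in Hoxd3, so the counts of the 4 genes with higher OHT values and of the 2 near 0 overlapped. Over the 24 Hox promoters the median CpG count was 14.5 and the median GC content 57.7%, beside 7 and 52.7% over all 32851 promoters of the table. The TATA-box letters TATAAA, searched on both strands, were in 4 of 24 Hox promoters (16.7%) and in 13.6% of all promoters. The homeodomain core TAATTA, which reads the same on both strands, was in 2 of 24 (8.33%), both of Hoxd11, and in 5.29% of all promoters. Overlap between the 2 motifs was allowed.

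Of the 16 posterior paralogs, 9 stood higher with OHT without overlap (56.3%), 1 stood lower (6.25%) and 6 overlapped between the groups. Over all genes in the table the shares were 17.2% higher and 14.6% lower, and 29.5% and 14.9% among genes with a mean of 0.1 to 10 TPM. Hoxa9, a regulator of blood progenitors and an oncogene in leukemia, read 1.20 and 1.49 TPM with OHT, against 0.410 and 0.328 TPM with EtOH. Its ratio of group means was 3.64, above the 2.99 of Hoxd1 and the 2.46 of Hoxc10. Its neighbour Hoxa10, which patterns the uterus and lumbar region, read 5.55 and 6.93 TPM with OHT, against 5.01 and 4.84 TPM with EtOH, a ratio of 1.27. Hoxd9 read 4.87 and 4.52 TPM with OHT, against 3.51 and 2.83 TPM with EtOH (log2 difference 0.45, SE 0.18, limma adjusted p = 0.473). Both Hoxd9 libraries with OHT were higher, as for its neighbour Hoxd8 whose promoter is printed above.

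Hoxb9 was the one Hox gene that stood lower in both OHT libraries than in either EtOH library. This thoracic regulator read 1.53 and 1.47 TPM with OHT, against 1.99 and 2.18 TPM with EtOH (log2 difference -0.30, SE 0.16, limma adjusted p = 0.593). Its distant neighbour Hoxb13, a regulator of prostate and tail, went the other way at a lower level, with 0.692 and 0.749 TPM with OHT, against 0.449 and 0.281 TPM with EtOH. Within paralog group 9, the fourth member Hoxc9 read 0.211 and 0.229 TPM with OHT, against 0.109 and 0.122 TPM with EtOH. Group 9 therefore held 3 genes above and 1 below EtOH, beside 17.2% above and 14.6% below over all genes in the table.

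Paralogs 10 and 11, which shape the lumbar and sacral region, limbs and kidney, differed in the sign of their mean differences. That sign was not steady for paralog 11. The 3 genes of paralog 10 had positive log2 differences (Hoxa10 0.28, Hoxc10 0.47 and Hoxd10 0.20). The 3 genes of paralog 11 lay slightly below 0, with Hoxc11 at -0.098, and their groups overlapped. Hoxc10 read 1.04 and 0.757 TPM with OHT, against 0.397 and 0.332 TPM with EtOH, a ratio of 2.46. Hoxc10 shares 7.34% of its 31-base words with Hoxc5. Hoxd10 read 1.08 and 1.63 TPM with OHT, against 0.914 and 1.15 TPM with EtOH, and the groups overlapped. Hoxa11 read 3.19 and 3.7998 TPM with OHT, against 3.49 and 3.76 TPM with EtOH (log2 difference -0.044, SE 0.18). Hoxd11 read 2.69 and 4.36 TPM with OHT, against 4.33 and 3.21 TPM with EtOH (log2 difference -0.091, SE 0.25). For Hoxa11, Hoxc11 and Hoxd11 the groups overlapped, and each sign turned when OHT replicate 1 was left out (0.054, 0.17 and 0.18). That of Hoxd11 also turned without EtOH replicate 1 (0.079). Hoxa11 shares 33.9% of its 31-base words with the opposite strand of Hoxa11os, and Hoxd11 shares 10.5% with other transcripts on its own strand.

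At the 5′ ends of the clusters, Hoxc13 (chromosome 15, 102921103 to 102928814, plus strand) had the highest level of all Hox genes. It read 7.74 and 8.20 TPM with OHT, against 5.16 and 5.71 TPM with EtOH (log2 difference 0.48, SE 0.17, limma adjusted p = 0.430). Both OHT libraries exceeded both EtOH libraries by more than the spread within either pair. Its neighbour Hoxc12 read 3.30 and 3.77 TPM with OHT, against 2.37 and 3.02 TPM with EtOH (log2 difference 0.30, SE 0.19). Hoxd13, a digit and genital regulator, read 5.56 and 6.02 TPM with OHT, against 5.00 and 4.77 TPM with EtOH (log2 difference 0.21, SE 0.17). For both genes the OHT libraries were the higher ones, by small margins. Hoxa13, which acts with Hoxd13 in digits, read 1.40 and 1.74 TPM with OHT, against 1.25 and 1.73 TPM with EtOH, and its groups overlapped; its log2 difference of 0.047 turned to -0.027 under quantile normalization, to -0.049 without OHT replicate 2 and to -0.091 without EtOH replicate 1.

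The remaining Hox genes reported here stayed below 1 TPM in every library. For Hoxa2, Hoxa5, Hoxa6, Hoxb2, Hoxc5, Hoxc6 and Hoxc9 the OHT values were all above the EtOH values, running from 0.0536 to 0.833 TPM with OHT and from 0 to 0.382 TPM with EtOH. The largest of these were the lung regulator Hoxa5, at 0.833 and 0.598 TPM with OHT, against 0.227 and 0.3004 TPM with EtOH, and the limb-level regulator Hoxc6, at 0.726 and 0.664 TPM with OHT, against 0.170 and 0.382 TPM with EtOH. For Hoxc5 the groups were separated by 0.000857 TPM. Among all genes with a mean below 1 TPM and not at 0 throughout, 18.6% lay above EtOH without overlap and 15.9% below. The groups overlapped for Hoxa3, Hoxa4, Hoxb1, Hoxb3, Hoxb7, Hoxb8, Hoxc8, Hoxc11, Hoxd3 and Hoxd12, whose values ran from 0 to 0.988 TPM with OHT and from 0 to 0.425 TPM with EtOH. Hoxb3 and Hoxb2 share 52.6% and 26.5% of their 31-base words with the opposite strand of other genes, chiefly Hoxb3os.

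Genes that act with or upstream of the Hox proteins did not pass the test either. Of 39 listed cofactors, ParaHox genes, cluster neighbours, retinoic acid genes and noncoding RNAs of the clusters, 27 matched the table by symbol, 15 were tested and none passed. The 12 noncoding RNAs were not analysed here. At an unadjusted p under 0.05 stood 1 higher and 2 lower genes of the 15, where 6.02% of all tested genes were higher and 4.46% lower. Over all 27 the median log2 difference was 0.039, with OHT above EtOH without overlap for 6 genes and below for 4, where the shares over all genes in the table were 17.2% above and 14.6% below.

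The cofactor gene Pknox2, whose product pairs with PBX proteins, read 3.75 and 4.49 TPM with OHT, against 2.36 and 2.76 TPM with EtOH (log2 difference 0.52, SE 0.19, limma adjusted p = 0.425). Evx1, a homeobox gene next to the posterior end of HoxA, read 2.49 and 3.53 TPM with OHT, against 6.001 and 5.58 TPM with EtOH (log2 difference -0.77, SE 0.20, limma adjusted p = 0.308). Evx1 thus lay below EtOH without overlap, which no HoxA gene did, although the OHT means of Hoxa4 and Hoxa11 were lower and overlapped. Crabp2, a retinoic acid carrier, read 5.94 and 5.13 TPM with OHT, against 9.08 and 9.64 TPM with EtOH (log2 difference -0.67, SE 0.18, limma adjusted p = 0.309). Cdx1, Cdx2 and Cdx4, caudal-type activators of the Hox clusters, overlapped between groups, and Cdx4 read 0.634 and 1.52 TPM with OHT, against 1.67 and 1.33 TPM with EtOH. Without OHT replicate 1, Crabp2 (adjusted p = 0.0170), Evx1 (0.0329) and Pknox2 (0.0347) passed, and without OHT replicate 2, Crabp2 (0.0284), Evx1 (0.0105) and Cdx4 (0.0479) passed. Cdx4's log2 difference was -0.30 with all libraries and 0.012 without OHT replicate 1.

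Marker lists of other cell types ranged widely in level, and the summed fibroblast and mesoderm markers were higher in both OHT libraries. The shares over all genes in the table, 17.2% with OHT above EtOH and 14.6% below, are the background for the marker counts that follow. The 10 fibroblast and feeder markers summed to 8.97 and 13.1 TPM with OHT, against 7.57 and 6.42 TPM with EtOH, of which Thy1 made up 7.64 and 10.9 TPM with OHT, against 6.41 and 5.43 TPM with EtOH. The groups did not overlap for 5 of the 10: OHT was higher for 4, including Col1a1 (0.560 and 0.777 TPM with OHT, against 0.254 and 0.380 TPM with EtOH), and lower for 1, while Postn and Twist2 were at 0 throughout. The 11 mesoderm markers summed to 113 and 96.5 TPM with OHT, against 89.3 and 80.0 TPM with EtOH, nearly all of it Tcf15, with 4 above and 1 below and none at 0 in all libraries. The 10 neural markers summed to 11.9 and 15.7 TPM with OHT, against 14.5 and 14.6 TPM with EtOH, with Neurog2 and Dbx1 at 0 throughout. Among them, Sox1 read 5.28 and 6.77 TPM with OHT, against 3.10 and 2.62 TPM with EtOH, and Pax6 read 3.17 and 3.60 TPM with OHT, against 7.56 and 7.33 TPM with EtOH. The 8 extra-embryonic endoderm markers summed to 36.0 and 53.1 TPM with OHT, against 37.2 and 41.3 TPM with EtOH, with 2 above and 2 below and none at 0 in all libraries. The 8 embryonic stem cell markers summed to 12420 and 11109 TPM with OHT, against 9564 and 9480 TPM with EtOH, with 6 above and 1 below. Of these sums Dppa5a made up 7089 and 5623 TPM with OHT, against 4733 and 4612 TPM with EtOH. The marker below was Utf1, at 335 and 318 TPM with OHT, against 397 and 373 TPM with EtOH, and Sox2 overlapped. The part of such cells in the Hox values was not tested.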

How the data were processed

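NEBNext kits with poly(A) selection were used, per the labels' protocols; strand is not mentioned there. The authors made the deposited TPM values with tools that include Trim Galore and Salmon (versions not given) and the build GRCm38, or mm10, as listed per the submitters' processing notes. The 2 value columns of the table that match no sample used here were not used, and 28 rows had no gene name.

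Values were analysed as log2(TPM + 1), a scale that understates changes of low genes. Groups were compared with limma 3.58.1 in R 4.3.3 (two-sided, with a mean-variance trend; 2 residual degrees of freedom), over the 12029 genes that averaged 1 TPM or more, with Benjamini-Hochberg adjustment over all of them and a threshold of 0.05. The fit was tested on simulated data whose spread was the same in both groups, unlike that of these libraries. SEs of single genes are limma's, and those of sums come from the library values. The alternatives were other pseudocounts, filters, scalings and trends, a replicate block, a length and GC correction, and leaving out each library. Coordinates and shared 31-base words come from GENCODE mouse release 21 (GRCm38), which 22213 gene identifiers matched without version, and whose release may not be the authors'. The members and gene lists were chosen with earlier results of these data known. Named with values were Hox genes averaging 1 TPM or more and those of 0.5 to 1 TPM whose groups did not overlap. From most other lists, genes lowest in p were named. Pou5f1, Nanog, Cdx1, Cdx2 and Cdx4 were named whatever their p, and no extra-embryonic endoderm gene was named. Hoxa5, Hoxc6, Hoxc9, Hoxb1, Col1a1, Dppa5a and Utf1 were singled out after their values were seen. Depth per library is unknown. Values of 1 member are not reported here, though sums and counts include it.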

Additional observations from a re-analysis of the deposited data

How the results depend on the processing

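No Hox gene passed under any alternative that kept all 4 libraries, and leaving out 1 library gave 0 to 4. The count of Hox genes above EtOH was 20 under median of ratios scaling and 18 under quantile normalization, and 23 to 32 with 1 library left out; the count below was 2 under either scaling and 1 to 7 with 1 library left out. The Hox median of 0.18 was 0.41, 0.23 and 0.040 at pseudocounts of 0.1, 0.5 and 5, 0.28 for Hox genes averaging 1 TPM or more, 0.12 under quantile normalization, 0.17 with the length and GC trend removed and 0.12 to 0.18 with 1 library left out. Quantile normalization moved the log2 difference of the summed TPM to 0.31 in HoxA, 0.0058 in HoxB and 0.27 in HoxD. With 0.5 in place of 1 TPM as the bound, 16 Hox genes lay below it with OHT and 23 with EtOH. Of all genes, 5 passed; the count was 0 without a filter on low values (998 higher and 840 lower at an unadjusted p under 0.05), 3 under median of ratios scaling, quantile normalization or no trend, 43 with the length and GC trend removed, and 34 to 2957 with 1 library left out. The replicate numbers are not stated to pair the samples; the replicate block gave 474 genes, no Hox gene and 1 of the other pathway genes (Evx1, adjusted p = 0.0237), beside a correlation of 0.29 between groups in the difference of replicate 1 and 2, and the pathway count was 0 to 3 with 1 library left out. Over libraries left out, the log2 difference ran from -0.14 to 0.054 for Hoxa11, -0.091 to 0.18 for Hoxa13, -0.36 to 0.18 for Hoxd11 and -0.61 to 0.012 for Cdx4, and quantile normalization gave -0.027 for Hoxa13. The cause of these moves was not tested. TPM without depth limits what can be said of genes near 0.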
